A study of Mus musculus with 17 samples.

Results

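Pulmonary surfactant is the lipid and protein film that keeps alveoli open, and it is made by alveolar type 2 (AT2) cells, the epithelial cells from which many lung adenocarcinomas of the mouse arise. The 10 genes described here are used as AT2 markers and cover the steps of surfactant production. Sftpb and Sftpc encode the small hydrophobic surfactant proteins that spread the lipid film, and Sftpa1 and Sftpd encode collectins that bind lipids and microbes. Napsa encodes a protease that processes the precursors of the hydrophobic proteins, Abca3 the transporter that loads lipid into lamellar bodies, Lamp3 a membrane protein of lamellar bodies, Lpcat1 an acyltransferase of surfactant phosphatidylcholine synthesis, Slc34a2 the phosphate transporter that takes up phosphate freed from surfactant, and Etv5 an ETS factor that acts downstream of ERK signalling in AT2 cells. The genes were chosen by name, and all 10 were found in each of 3 tables, which held 16410 genes for tumor cells, 13545 for TRMs and 13407 for MDMs, or 17556 different genes in all.

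The cells came from lung tumors of adult mice on a C57BL/6 background. KL mice carried Lkb1 fl/fl among their tumor-forming alleles, and KLG4 mice carried in addition Gpx4 m/m, an allele in which exons of Gpx4 lie between rox sites next to a CAG-driven DreERT2 that is silent until Cre removes a stop cassette. Both genotypes received adenoviral Cre (Ad-Cre) into the nose and tamoxifen, and cells were sorted 10 weeks after Ad-Cre. By design, Cre, tamoxifen and the tumor-forming alleles were shared and the Gpx4 allele set the groups apart. The groups also differed in the RNA level of Lkb1 and, in TRMs, in sex-linked genes, as given below. Ad-Cre was not limited by a cell type promoter. Tumor cells, sorted as CD45- CD31- EpCAM+, and the populations labelled TRMs and MDMs, abbreviations that the labels do not expand, were each profiled by poly(A) RNA sequencing in 2 KL and 2 KLG4 libraries, which made 12 libraries of the 17 samples of the series. Tumor cell groups are described as 2 mice each. The labels do not say whether the libraries of a group came from separate animals, from separate pools or from one pool, so standard errors and p-values measure the spread between these libraries, which may be technical.

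Some properties of the libraries bear on the values that follow. Recovered depth ran from 9.14 to 36.6 megareads (M) of counted reads. Gpx4 was at 95.0 and 76.8 RPKM (read number divided by gene length and by the size of the library) in KL tumor cells and at 56.4 and 61.9 RPKM in KLG4 tumor cells, counted over all exons. Stk11, the symbol of Lkb1, was at 25.9 and 25.8 RPKM in KL and at 61.6 RPKM in each library of KLG4 tumor cells. The TRM libraries were high in 10 alveolar macrophage markers, with a summed level of 9242 to 13498 RPKM. The MDM libraries went against their label, since 6 neutrophil markers summed to 10630 to 23278 RPKM there, S100a9 alone reaching 9379 to 21106 RPKM, beside 1198 to 2160 RPKM for 8 macrophage markers. The label MDMs is kept below only as a name. Within it, KL replicate 2 stood apart, with 287.8 RPKM over 8 monocyte-derived macrophage markers against 53.6 to 73.7 RPKM in the other 3 libraries. The 2 KLG4 tumor cell libraries differed from each other little more than by counting, with a chi-square per gene of 3.28 against 28.9 to 131.6 in the other pairs. All 4 tumor cell libraries held both Xist, transcribed in female cells, at 4.17 to 6.18 RPKM and the Y-linked Eif2s3y at 7.27 to 9.26 RPKM. Whether the KLG4 pair was 1 pool sequenced repeatedly was not tested. If it was, KLG4 tumor cells stand for 1 sample, and the standard errors, adjusted p-values and calls in tumor cells below rest on a spread that is partly technical.

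Promoter sequence is shown for Sftpb, Sftpa1 and Lamp3, 3 of the genes that followed Sftpc closely over the libraries, with r from 0.971 to 0.985. Slc34a2 followed it as closely, with r of 0.974, and its promoter, not shown, held no match to the letters searched. Each line gives the 250 bases before the RefSeq start (GRCm38.p6), 5′ to 3′ in the direction of transcription, at chr6:72304360-72304609 (+ strand) for Sftpb, chr14:41131538-41131787 (+ strand) for Sftpa1 and chr16:19706366-19706615 (- strand) for Lamp3. Capitals mark matches to CNCTNNAG, the letters searched for NKX2-1, the lung epithelial homeodomain factor, and in Lamp3 also TGTTTAC, searched for the FOXA factors.
Sftpb: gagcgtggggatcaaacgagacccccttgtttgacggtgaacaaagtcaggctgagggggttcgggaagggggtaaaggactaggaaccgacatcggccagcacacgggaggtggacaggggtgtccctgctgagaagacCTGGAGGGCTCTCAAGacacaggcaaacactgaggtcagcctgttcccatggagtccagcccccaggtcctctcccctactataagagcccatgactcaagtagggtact
Sftpa1: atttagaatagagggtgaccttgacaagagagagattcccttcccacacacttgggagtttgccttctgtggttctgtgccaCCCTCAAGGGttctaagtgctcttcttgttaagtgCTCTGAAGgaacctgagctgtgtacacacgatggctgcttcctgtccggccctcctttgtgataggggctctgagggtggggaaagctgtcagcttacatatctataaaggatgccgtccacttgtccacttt
Lamp3: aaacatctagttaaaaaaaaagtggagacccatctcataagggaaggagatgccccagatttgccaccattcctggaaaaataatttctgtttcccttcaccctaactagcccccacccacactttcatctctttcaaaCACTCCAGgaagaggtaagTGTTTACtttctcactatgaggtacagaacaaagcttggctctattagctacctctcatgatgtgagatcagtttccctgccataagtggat
Sftpb held 2 adjoining NKX2-1 matches, Sftpa1 held 3 of which 2 overlapped, and Lamp3 held 1 beside its FOXA match. Promoters were matched for 7 of the 10 genes, all but Sftpc, Sftpd and Napsa. CNCTNNAG, read on both strands, was in 5 of the 7 genes and in 43.5% of 32851 promoters of the same length, so that its presence is common. TGTTTAC was in 2 of the 7 genes and in 3.17% of promoters. No match to TTGCNNCAA (CEBP factors, 1.74% of promoters) or CCGGAAGT (ETS factors, 2.88%) was found in these windows.

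The genes lie on 7 chromosomes in the GRCm38 coordinates of the tumor cell table, and all are protein coding. Sftpa1 (chr14:41131782-41136452, + strand) and Sftpd (chr14:41172212-41185198, - strand) are neighbours with 35760 bases between them, and Sftpc lies on the same chromosome (chr14:70520941-70524081, - strand). Abca3 (chr17:24351950-24410201, + strand) shares exon bases with D330041H03Rik, and Napsa (chr7:44572380-44586862, + strand) with Gm15396, both on the opposite strand. Reads were counted without strand, so how reads were divided within these pairs is uncertain.

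In tumor cells, the surfactant genes were abundant in KL and lower in KLG4. In KL, Sftpc had the 35th highest mean of the 16410 genes, Sftpd the 56th, Sftpb the 63rd and Sftpa1 the 114th. By mean RPKM, a level per length, the order in KL was Sftpc, Sftpd, Sftpb, Sftpa1, Lamp3, Slc34a2, Lpcat1, Abca3, Napsa and Etv5, and the ranges of the 2 libraries overlapped between neighbours for Slc34a2 and Lpcat1 and for Lpcat1 and Abca3. Reads of the 10 genes made up 0.564% and 0.651% of counted reads in the KL libraries and 0.224% and 0.227% in the KLG4 libraries. In bulk samples such as these, fewer cells of a type and less RNA per cell cannot be told apart.

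**Figure D1:**
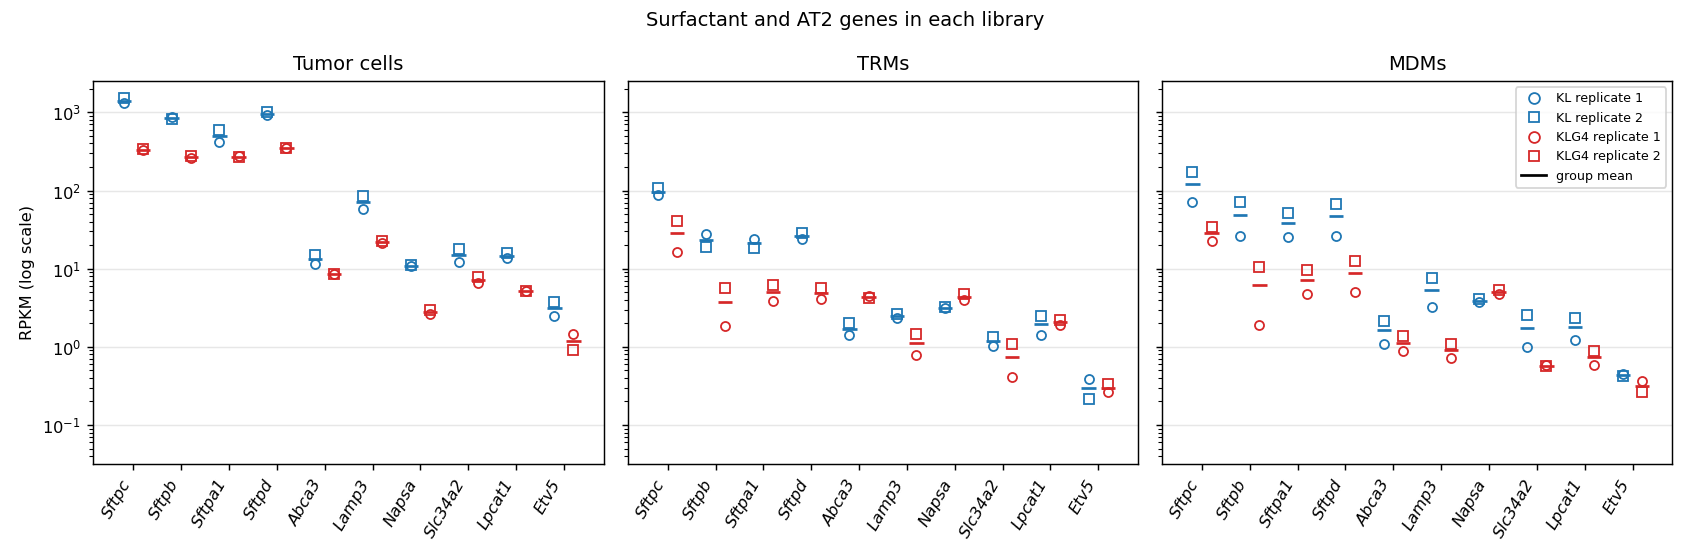
RPKM of the 10 genes in each of the 12 libraries (log axis), with a panel for each population, KL in blue, KLG4 in red, circles for replicate 1, squares for replicate 2 and a line at the mean of 2 libraries. In tumor cells every gene is lower in both KLG4 libraries, and in TRMs Abca3 and Napsa are higher.

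Sftpc was at 1324 and 1506 RPKM in KL tumor cells and at 331.1 and 335.3 RPKM in KLG4 tumor cells. The KL mean was 4.25 times that of KLG4, and the groups lay far apart (log2 fold change of KLG4 over KL -2.08 ± 0.13 SE, adjusted p = 0.00037). Sftpb was at 880.1 and 833.0 RPKM in KL and at 261.4 and 278.9 RPKM in KLG4 (-1.66 ± 0.12, adjusted p = 0.00050). Sftpd was at 913.4 and 1020 RPKM in KL against 349.6 and 345.9 RPKM in KLG4 (-1.47 ± 0.12, adjusted p = 0.00077). The fitted difference of the other collectin, Sftpa1, was smaller, though the 2 differences were not tested against each other. Sftpa1 was at 412.5 and 590.5 RPKM in KL, the widest KL pair among the 4 surfactant proteins as a ratio, and at 272.6 and 268.6 RPKM in KLG4 (-0.87 ± 0.19, adjusted p = 0.018). The order among the secreted proteins therefore differed between genotypes, with Sftpc above Sftpd in KL and Sftpd, at a mean of 347.7 RPKM, above Sftpc, at 333.2 RPKM, in KLG4, with no overlap between the libraries of either pair. Relative to Sftpc in the same library, Sftpa1 was at 31.2% and 39.2% in KL and at 82.3% and 80.1% in KLG4, and Sftpb was at 66.5% and 55.3% in KL and at 78.9% and 83.2% in KLG4.

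The genes of surfactant processing and storage fell too. The protease Napsa was at 10.7 and 11.1 RPKM in KL and at 2.60 and 2.95 RPKM in KLG4 (-1.94 ± 0.16, adjusted p = 0.00074). Its antisense partner Gm15396 was at 9.40 and 11.0 RPKM in KL and at 2.29 and 2.48 RPKM in KLG4. Lamp3, the lamellar body membrane protein, was at 58.6 and 85.2 RPKM in KL and at 21.3 and 22.4 RPKM in KLG4 (-1.69 ± 0.20, adjusted p = 0.0023). The lipid transporter Abca3 had the smallest fitted difference of the 10. Its level was 11.5 and 14.8 RPKM in KL and 8.62 and 8.53 RPKM in KLG4 (-0.60 ± 0.17, adjusted p = 0.039), and the overlapping D330041H03Rik was at 10.3 RPKM in each KL library and at 6.33 and 6.37 RPKM in KLG4.

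The lipid enzyme, the phosphate transporter and the transcription factor were lower as well. Lpcat1 was at 13.5 and 15.8 RPKM in KL and at 5.12 and 5.20 RPKM in KLG4 (-1.48 ± 0.15, adjusted p = 0.0014). Slc34a2 was at 12.1 and 18.0 RPKM in KL and at 6.53 and 7.79 RPKM in KLG4 (-1.04 ± 0.23, adjusted p = 0.018). Etv5 was at 2.45 and 3.78 RPKM in KL and at 1.46 and 0.919 RPKM in KLG4 (-1.32 ± 0.32, adjusted p = 0.026), the lowest level of the 10 in each genotype.

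All 10 genes were lower in both KLG4 tumor cell libraries than in both KL libraries, as were 42.2% of the 13770 genes tested. At an adjusted p under 0.05, 10 of 10 were called lower, where 19.6% of all genes tested were. For CD8+ T cells, which are not described here, the study took genes at p under 0.05 without adjustment and a change of 2-fold or more. The same threshold is applied here to the other populations and called the threshold of the study. By that threshold 8 were called lower (all but Sftpa1 and Abca3), where 7.26% of all genes were. The 10 genes had a median difference of -1.48, and all genes one of -0.094. Without KLG4 replicate 1 or KLG4 replicate 2, 6 of the 10 kept an adjusted p under 0.05, while 1990 and 1927 of all 13770 genes were called in either direction. The calls of Sftpa1, Abca3, Slc34a2 and Etv5 were lost each time. The call of Etv5 was also lost without KL replicate 2, and that of Abca3 without the mean-variance trend and after rescaling to reads outside mitochondrial genes.

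Markers of other cells and of epithelium moved with these differences. The KLG4 tumor cell libraries had a summed level of 306.3 and 312.2 RPKM over 10 leukocyte markers against 22.3 and 32.1 RPKM in KL, of 369.2 and 368.7 against 10.6 and 15.7 RPKM over 6 fibroblast markers, and of 2248 and 2150 against 178.6 and 271.3 RPKM over 5 neutrophil markers. No leukocyte or fibroblast marker was at 0 in all of these libraries, although the gate against CD45 would remove leukocytes. Mitochondrial genes took 7.39% and 8.28% of counted reads in KL and 14.9% and 14.7% in KLG4, and depth was 36.6 and 30.2 M in KL and 17.6 and 15.9 M in KLG4. The 10 pan-epithelial markers, Epcam (the sorting marker) among them, summed to 8684 and 6487 RPKM in KL and to 3760 and 3776 RPKM in KLG4. Their median was -0.94, and 9 of 10 were called lower, where 19.6% of all genes tested were. When the libraries were centred on this list, the median of the 10 surfactant and AT2 genes was -0.55, and 5 of them stayed called lower, where 2.17% of all genes tested were called lower. They were Sftpc (-1.16), Sftpb (-0.74), Sftpd (-0.55), Lamp3 (-0.76) and Napsa (-1.01). In that setting Lpcat1 (-0.56), Etv5 (-0.39) and Slc34a2 (-0.11) lost the call, and Sftpa1 (0.059) and Abca3 (0.33) changed sign. The median of all genes rose to 0.83 in it. The share of the difference that goes with the makeup of the sorted cells was not tested beyond this.

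**Figure D2:**
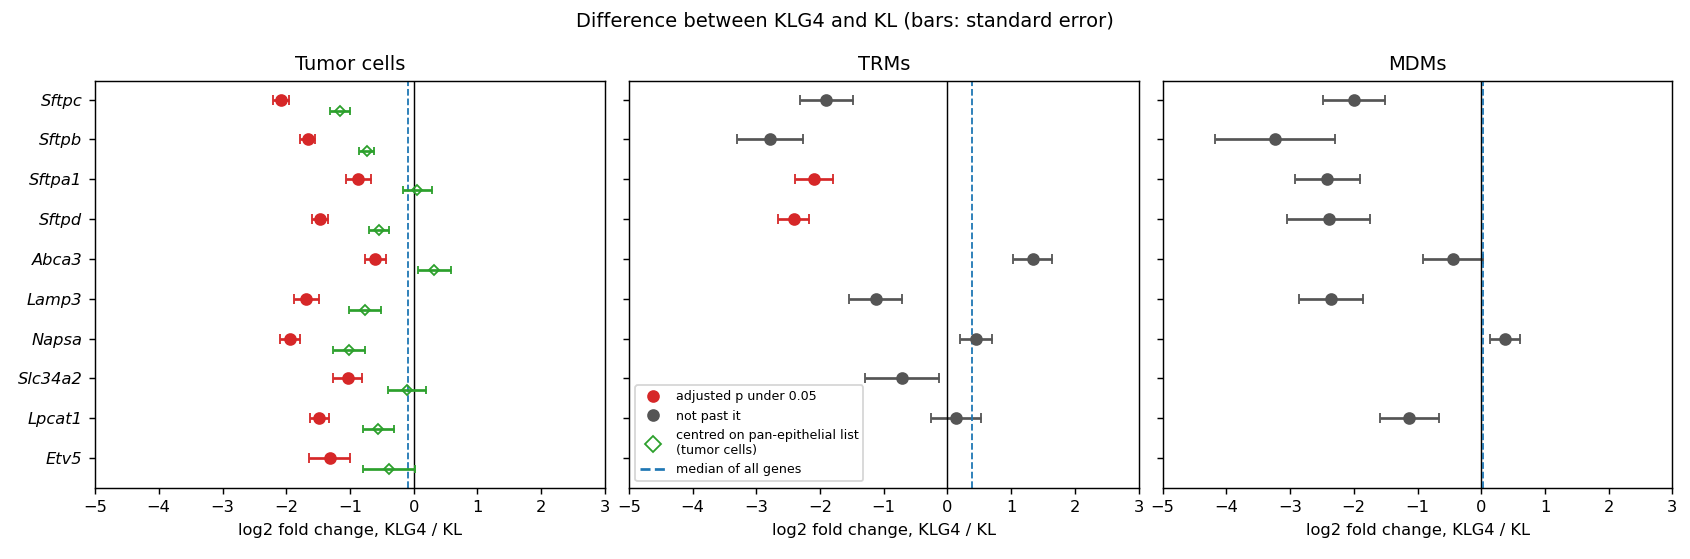
Log2 fold change of KLG4 over KL with its standard error for the 10 genes in each population, from 2 against 2 libraries. Filled points are red where the adjusted p was under 0.05, open diamonds show tumor cells centred on the pan-epithelial list, and the dashed line is the median of all genes; all 10 tumor cell points lie left of that line, and 8 of the diamonds lie below 0.

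Other genes of the surfactant pathway were called in both directions in tumor cells, where 19.6% of all genes tested were called lower and 20.6% higher. Of 4 other protein processing genes tested, 1 was called lower, a share near that of all genes, and none higher. It was Ctsh, which encodes cathepsin H, a protease that acts on the SP-B and SP-C precursors, and it was at 161.3 and 154.6 RPKM in KL and at 40.8 and 43.9 RPKM in KLG4 (-1.90 ± 0.11, adjusted p = 0.00034). Of 15 surfactant lipid synthesis genes, 4 were called lower, near the 19.6% of all genes tested, and 2 higher, beside 20.6%, with a median of -0.36. Scd1, a fatty acid desaturase, fell by 1.39 on the log2 scale, the elongase Elovl1 by 1.13, Acly, which makes cytosolic acetyl-CoA, by 0.57 and the phospholipid enzyme Cept1 by 0.51. Pcyt1a, the rate-setting enzyme of phosphatidylcholine synthesis, was at 4.61 and 6.85 RPKM in KL and at 11.6 and 12.2 RPKM in KLG4 (1.07 ± 0.22, adjusted p = 0.015), and the elongase Elovl6 rose by 1.13 at levels under 2 RPKM. Cept1 and Elovl6, like the other genes named below as outside the rule, were named after their values were seen because few genes were called.

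Of 10 lamellar body and turnover genes, 4 were called lower and 2 higher, where 19.6% and 20.6% of all genes tested were, and the median was -0.49. Adgrf5, a receptor that restrains the surfactant pool, was at 57.4 and 69.5 RPKM in KL and at 25.0 and 23.8 RPKM in KLG4 (-1.37 ± 0.14, adjusted p = 0.0014). Rab38, a GTPase of lysosome-related organelles, fell by 1.19 on the log2 scale, Vps33b, a vesicle tethering protein, by 0.50 and the transporter Abca5, outside the rule, by 1.02. Lyst, a regulator of lysosome size, was higher, at 1.26 and 2.74 RPKM in KL and at 8.71 and 9.60 RPKM in KLG4 (2.23 ± 0.36, adjusted p = 0.0067). Prdx6, a peroxiredoxin with phospholipase activity, rose by 0.74 on the log2 scale. Lyst is also widely expressed in leukocytes, whose markers were higher in the same libraries, and the part of these cells in its value was not tested.

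Among 10 transcriptional regulators of AT2 cells, 5 were called lower and none higher (median -0.43), and of all genes tested 19.6% were called lower. Nkx2-1, which activates surfactant genes, was at 16.0 and 18.8 RPKM in KL and at 4.91 and 6.19 RPKM in KLG4 (-1.64 ± 0.18, adjusted p = 0.0018). Hopx, which is also counted among the type 1 markers below, fell by 1.50 and Grhl2 by 0.67 on the log2 scale, and the other two, outside the rule, were Foxa2, which fell by 0.56, and Tfcp2l1, which fell by 0.94. Of 10 genes of FGF and ERK feedback, the signal upstream of Etv5, 4 were called lower and none higher (median -0.49), beside the same 19.6% of all genes. The feedback inhibitor Spry2 was at 23.5 and 30.7 RPKM in KL and at 11.0 and 10.6 RPKM in KLG4 (-1.31 ± 0.17, adjusted p = 0.0030). The ERK phosphatase Dusp6 fell by 1.23, Spred1, another inhibitor of the pathway, by 1.00, and Etv4, the close relative of Etv5 and outside the rule, by 1.03. Centring on the pan-epithelial list adds nearly the same amount to every gene, and it moved these medians above 0, to 0.57 for lipid synthesis, 0.44 for lamellar body genes, 0.49 for regulators and 0.44 for FGF and ERK feedback, all below the median of all genes at 0.83. Then 0 lower and 6 higher were called for lipid synthesis, 0 and 3 for lamellar body genes, 2 and 5 for regulators and 0 and 3 for FGF and ERK feedback, while 2.17% of all genes tested were called lower and 58.8% higher.

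Of 17 other AT2 markers, 10 were called lower, where 19.6% of all genes tested were, and 4 higher, near the 20.6% of all genes (median -0.74). Centred on the pan-epithelial list the median was 0.19, with 0 called lower and 8 higher, where 2.17% and 58.8% of all genes were. Scd1, counted here as well, is given above. Egfl6 fell by 1.36 and Ppp1r14c by 0.88 on the log2 scale. Lyz2, a lysozyme made by AT2 cells and by macrophages, was at 213.5 and 268.5 RPKM in KL and at 796.1 and 830.8 RPKM in KLG4 (1.76 ± 0.15, adjusted p = 0.00083). Cd74, the class II invariant chain of AT2 and antigen presenting cells, rose by 1.27 and Rnase4 by 0.96. Lyz2 was at 5843 to 6715 RPKM and Cd74 at 1938 to 2254 RPKM in the TRM libraries. Markers of the other cell types of distal epithelium differed in direction. Of 9 alveolar type 1 markers 8 were called lower and Pdpn higher (median -1.50), and of 8 club cell markers 7 were called higher and none lower (median 1.12). Centred on the pan-epithelial list, 5 type 1 markers were called lower, where 2.17% of all genes tested were, and 8 club cell markers higher, where 58.8% were. Genes of surfactant uptake and catabolism in alveolar macrophages were mostly higher, with 8 of 12 called higher and 1 lower (median 2.00), where 20.6% and 19.6% of all genes tested were, and Csf2rb, the shared beta chain of the GM-CSF receptor, rose by 3.73 from 0.986 and 2.30 RPKM to 20.6 and 22.1 RPKM. Of 9 alveolar macrophage markers tested in the same libraries, 6 were called higher and none lower (median 2.13). Chil3 and Ear2 had the largest differences, 3.85 and 2.76, while Fabp1 (0.93), Krt79 (-0.22) and Pparg (-0.64) did not pass the threshold.

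**Figure D3:**
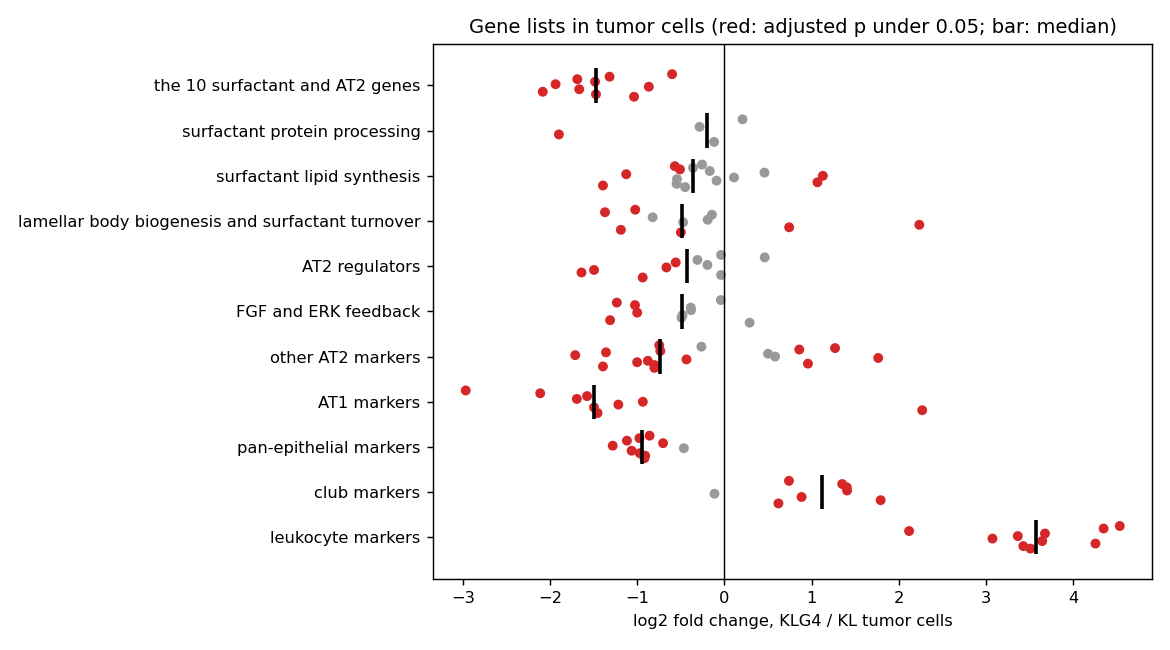
Log2 fold change of KLG4 over KL tumor cells for each tested gene of 11 lists, with red points at an adjusted p under 0.05 and a black bar at the list median. The surfactant and AT2 genes have a median of -1.48, near that of the type 1 markers at -1.50, and the leukocyte markers lie at 2.12 and above.

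In the TRM libraries, the 4 surfactant proteins were present at 7.54% or less of their KL tumor cell level and lay lower in both KLG4 libraries, while Abca3 and Napsa had their own pattern. Sftpc was at 87.1 and 106.7 RPKM in KL and at 16.4 and 40.4 RPKM in KLG4 (-1.90 ± 0.42, adjusted p = 0.069). Sftpb was at 27.7 and 19.0 RPKM in KL and at 1.86 and 5.62 RPKM in KLG4 (-2.78 ± 0.52, adjusted p = 0.057). The groups did not overlap for either gene, but neither passed the threshold. Sftpa1 was at 24.1 and 18.7 RPKM in KL and at 3.81 and 6.22 RPKM in KLG4 (-2.10 ± 0.30, adjusted p = 0.043). Sftpd was at 23.7 and 28.5 RPKM in KL and at 4.11 and 5.58 RPKM in KLG4 (-2.42 ± 0.24, adjusted p = 0.029). These 2 collectin genes were the only ones of the 10 called. Both lost the call without the mean-variance trend and when centred on the pan-epithelial list (Sftpa1 -0.67, Sftpd -0.98). By limma-voom Sftpc, Sftpb, Lamp3 and Abca3 were called as well, where 763 of 10660 genes were called. Abca3 was above KL in both KLG4 libraries, at 1.40 and 2.01 RPKM in KL and at 4.53 and 4.26 RPKM in KLG4 (1.34 ± 0.31, adjusted p = 0.074), and D330041H03Rik, with which it shares bases, was at 1.01 and 2.16 RPKM in KL and at 3.09 and 3.61 RPKM in KLG4.

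The lower genes in TRMs gave less clear values. Napsa was at 3.16 and 3.21 RPKM in KL and at 4.0 and 4.76 RPKM in KLG4 (0.44 ± 0.25, adjusted p = 0.29), so that its groups did not overlap. Relative to the median of all genes, 0.38, this difference was small, and it was 0.020 with quantile scaling, 0.079 with TMM scaling, 0.062 after rescaling to reads outside mitochondrial genes and 0.017 by limma-voom. Lamp3 was at 2.33 and 2.62 RPKM in KL and at 0.782 and 1.48 RPKM in KLG4 (-1.13 ± 0.42, adjusted p = 0.15). For Slc34a2 (1.04 and 1.35 RPKM in KL, 0.417 and 1.09 RPKM in KLG4) and Lpcat1 (1.40 and 2.46 RPKM in KL, 1.92 and 2.20 RPKM in KLG4) the groups overlapped. Etv5, at 0.213 to 0.390 RPKM in the 4 libraries, was too low to be tested. Of the 9 genes tested 2 were called lower, where 0.437% of 10990 genes were, and 6 passed the threshold of the study, where 14.1% of genes did in either direction. Of these 6, Abca3 was higher and 5 were lower, as were 2.04% of genes tested. Of all 10 genes, 5 lay below KL in both KLG4 libraries (8.95% of genes tested) and 2 above (53.7% of genes tested). The median was -1.13 over the 9 genes and 0.38 over all genes. TMM scaling moved the median of all genes to 0.017 and that of the 9 genes to -1.48, and then 1 gene, Sftpd, was called.

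The TRM libraries of the genotypes also differed in other features. Mitochondrial genes took 31.6% and 22.5% of counted reads in KL and 2.96% and 5.80% in KLG4. Xist was at 0.257 and 0.501 RPKM in KL and at 18.3 and 20.2 RPKM in KLG4, and the Y-linked Eif2s3y was at 12.3 and 14.7 RPKM in KL and listed at 0 in KLG4, so that sex and genotype cannot be told apart in this population. Over 9 pan-epithelial markers the summed level was 136.0 and 158.0 RPKM in KL and 74.3 and 117.9 RPKM in KLG4, and 6 of the 9 lay below KL in both KLG4 libraries. Of 9 alveolar type 1 markers 6 also lay below, with a median level of 7.12 and 6.69 RPKM in KL and 1.85 and 4.01 RPKM in KLG4. Their sum was 81.8 and 78.3 against 73.7 and 81.8 RPKM and was carried by Pdpn, which was at 26.6 and 26.3 RPKM in KL and at 48.1 and 46.1 RPKM in KLG4. Calls depended on single libraries, with 1 gene called without KL replicate 1, 4 without KL replicate 2, 3 without KLG4 replicate 1 and 4 without KLG4 replicate 2. The number of all 10990 genes called in these settings was 113, 2382, 151 and 222. The 4 without KL replicate 2 included Abca3, which was higher. Without KLG4 replicate 1 the log2 fold change of Sftpc was -1.25, that of Lamp3 -0.71 and that of Slc34a2 -0.12. Of 12 genes for uptake and breakdown of surfactant by macrophages, 3 were called higher, where 1.36% of all genes tested were, and the median was 0.71 beside 0.38 over all genes. None of the 12 was called under quantile or TMM scaling or after rescaling to reads outside mitochondrial genes, and with TMM scaling the median was 0.34. The 3 genes were Marco, a scavenger receptor at 156.5 and 135.1 RPKM in KL and 396.2 and 640.9 RPKM in KLG4 (1.79 ± 0.25, adjusted p = 0.044), Abca1, a cholesterol exporter (2.45 ± 0.32, adjusted p = 0.043), and Csf2rb (1.36 ± 0.22, adjusted p = 0.047).

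In the MDM libraries, most of the 10 genes were lower in KLG4 without passing the threshold, and the KL pair was wide, with replicate 2 the higher for most genes. Sftpc was at 71.7 and 173.2 RPKM in KL and at 22.9 and 33.7 RPKM in KLG4 (-2.00 ± 0.49, adjusted p = 0.68). Sftpb was at 26.3 and 71.5 RPKM in KL and at 1.89 and 10.6 RPKM in KLG4 (-3.23 ± 0.94, adjusted p = 0.68), and without KLG4 replicate 1 its log2 fold change was -2.02. The KL replicates of each of these genes differed by more than 2-fold. Sftpa1 was at 25.7 and 52.1 RPKM in KL and at 4.78 and 9.65 RPKM in KLG4 (-2.41 ± 0.50, adjusted p = 0.68). Sftpd was at 26.1 and 67.6 RPKM in KL and at 4.98 and 12.5 RPKM in KLG4 (-2.39 ± 0.65, adjusted p = 0.68). Lamp3, of the lamellar body membrane, had the same form, with 3.26 and 7.55 RPKM in KL and 0.711 and 1.10 RPKM in KLG4 (-2.36 ± 0.51, adjusted p = 0.68). Lpcat1 was at 1.23 and 2.33 RPKM in KL and at 0.594 and 0.874 RPKM in KLG4 (-1.13 ± 0.46, adjusted p = 0.68), and its log2 fold change was -0.69 without KL replicate 2. Napsa was the exception, at 3.71 and 4.06 RPKM in KL and 4.74 and 5.39 RPKM in KLG4 (0.37 ± 0.23, adjusted p = 0.69), and Abca3 overlapped between the groups, at 1.10 and 2.17 against 0.894 and 1.37 RPKM.

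Slc34a2 (0.989 and 2.54 RPKM in KL, 0.582 and 0.567 RPKM in KLG4) and Etv5 (0.262 to 0.446 RPKM) were too low to be tested in MDMs. None of the 8 genes tested was called by limma at an adjusted p under 0.05, and none of the 10475 genes of the table was (0%). At an unadjusted p under 0.05 there were 5 of the 8 and 706 of all genes, and limma-voom on the recovered reads called 0 of the 8. Those 5 also passed the threshold of the study, where 3.07% of genes were lower. Of all 10 genes, 8 lay below KL in both KLG4 libraries, where 19.1% of genes tested did, and 1 above, where 25.4% did. Without KL replicate 1, Sftpc, Sftpa1, Sftpd, Lamp3 and Lpcat1 were called lower, as were 1484 of all 10475 genes, on a single KL library that was assumed to vary like the others. That library, KL replicate 2, held the most epithelial RNA, with 266.9 RPKM over 8 pan-epithelial markers against 77.4 RPKM in KL replicate 1 and 20.5 and 61.0 RPKM in KLG4, and its Xist level was 0.839 RPKM against 19.4 to 21.8 RPKM in the other 3.

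Set against the KL tumor cell mean of the same gene, the genes differed in how low they were in the 8 TRM and MDM libraries. The tables were normalized separately, so these percentages are approximate. The 4 surfactant proteins were at 2.22% to 7.54% of the tumor cell level in KL TRMs and at 0.217% to 2.86% in KLG4 TRMs. In MDMs they were at 2.70% to 12.2% in KL and at 0.221% to 2.38% in KLG4. Napsa stood apart at 29.0% to 43.8% in TRMs and 34.1% to 49.5% in MDMs. Against the KLG4 tumor cell mean instead, Napsa was at 114% to 172% in TRMs and at 134% to 194% in MDMs. Of the KL tumor cell mean, Abca3 in TRMs was at 10.6% and 15.3% in KL and at 34.5% and 32.4% in KLG4. Over all libraries of both genotypes Lpcat1 was at 4.06% to 16.8%, Etv5 at 6.85% to 14.3% and Slc34a2 at 2.78% to 16.9%, and in MDMs Abca3 was at 6.80% to 16.5%. Lamp3, at 0.989% to 10.5% in MDMs, lay inside the range of the surfactant proteins in each group of both populations. The median pan-epithelial marker was at 2.72% and 1.73% in KL TRMs and at 0.500% and 0.569% in KLG4 TRMs. In MDMs it was at 1.25% and 3.46% in KL and at 0.157% and 0.662% in KLG4. Each surfactant protein thus lay at 12.2% or less of the tumor cell level and the median epithelial marker at 3.46% or less. The median club cell marker was at 3.30% or less. The median type 1 marker was higher, at 6.16% and 10.5% in KL TRMs and at 1.96% and 2.14% in KLG4 TRMs. In MDMs it was at 8.07% and 20.5% in KL and at 5.32% and 5.35% in KLG4. The surfactant proteins and all of these medians were lower in KLG4. The part of epithelial RNA in the TRM and MDM values was not tested.

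**Figure D4:**
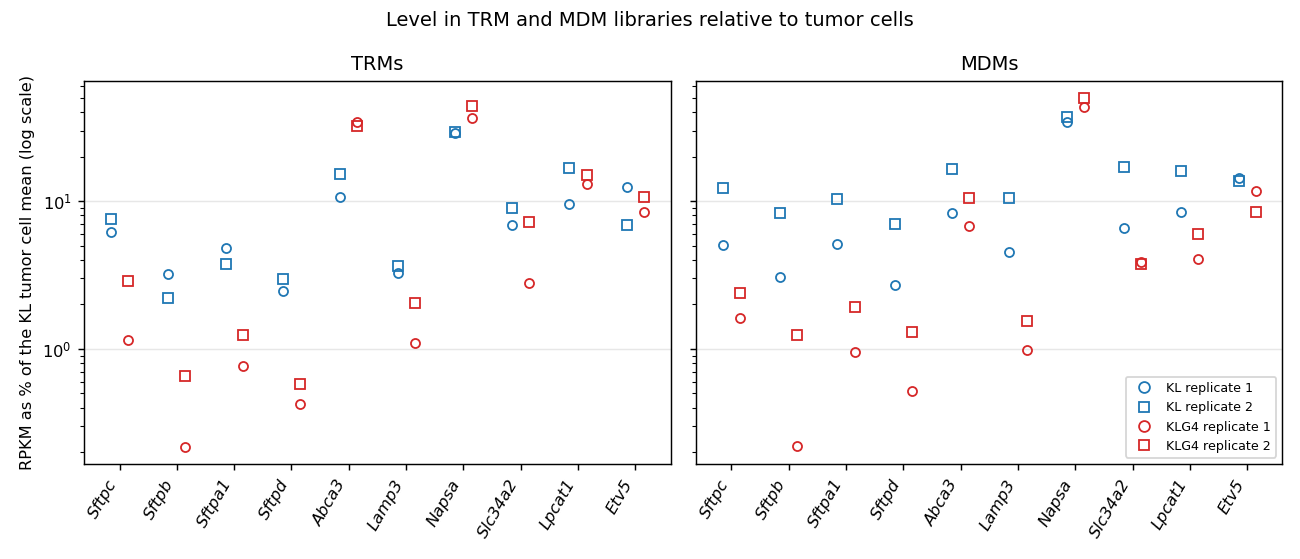
Level of each gene in each TRM and MDM library as a percent of its mean RPKM in KL tumor cells (log axis), KL in blue and KLG4 in red, circles for replicate 1 and squares for replicate 2. Sftpc, Sftpb, Sftpa1 and Sftpd lie at or below 12.2%, and Napsa lies at 29.0% to 49.5% in both populations.

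Across the 12 libraries the genes fell in with Sftpc to different degrees, as described by Pearson's r of log2(RPKM + 0.1). The points share their population and genotype, so r mostly describes the step between tumor cells and the other populations. It was 0.985 for Lamp3, 0.979 for Sftpb and Sftpd, 0.974 for Slc34a2, 0.971 for Sftpa1, 0.911 for Lpcat1, 0.741 for Abca3 and 0.456 for Napsa. Within the 8 TRM and MDM libraries r with Sftpc was -0.180 for Abca3 and -0.555 for Napsa, 0.483 for Lpcat1, and 0.934 to 0.954 for Lamp3, Sftpb, Sftpa1, Sftpd and Slc34a2. Etv5 did not reach the level required for this comparison. Among 5618 genes, the 5 outside the list most like Sftpc were Emp2 (0.984), which encodes a membrane protein high in type 1 cells, Magi1 (0.983), a scaffold of cell junctions, A430105I19Rik (0.982), Gja1 (0.979), the gap junction protein connexin 43, and Pawr (0.979), which encodes the pro-apoptotic protein PAR-4.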

How the data were processed

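Bulk RNA was sequenced from 12 libraries in 6 groups, with groups and replicate numbers read from sample titles. The remaining 5 samples were left out. As the labels and the study's methods state, paired-end reads from a non-directional library were trimmed (Trim Galore 0.6.4), aligned (HISAT2 2.0.5) and counted per gene (featureCounts 2.0.0) on the GRCm38 annotation. The authors deposited RPKM values in a table per population. Their own fold changes, p-values and test columns were not used. Gene lengths stood in the tumor cell table only.

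Each table was tested alone with limma (3.58.1, R 4.3.3) on log2(RPKM + 0.1). The fit used a mean-variance trend without covariates, and a gene was kept if 2 or more of the 4 libraries held 1 RPKM or more. Tests were two-sided with Benjamini-Hochberg adjustment over the table. Fold changes on this scale understate changes of low genes. A called gene is one with an adjusted p under 0.05. The authors named DESeq2, which was not used here because the values are not counts. Whole reads were recovered from RPKM and length to give depth and for limma-voom. Most pairs gave a read for each mate, so read totals overstate independent fragments. Promoter sequences came from RefSeq (GRCm38.p6), and gene types and overlaps from GENCODE. The test was checked on simulated data.

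The 10 genes and all lists were chosen with earlier results of these data known. From the other lists, genes called in tumor cells were named where a group mean reached 5 RPKM, at most 3 per direction. Marker genes were named beside results, as were the 5 genes most like Sftpc (found once in all 3 tables, 10 RPKM or more in 2 libraries). Alternatives were pseudocounts of 1 and 0.01, no filter or a stricter filter, quantile or TMM scaling, rescaling to reads outside mitochondrial genes, centring on the pan-epithelial list, no trend, limma-voom, the replicate block and leaving out each library.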

Additional observations from a re-analysis of the deposited data

Results flagged for a closer look

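In 3 of the 30 comparisons of a gene between populations, both KLG4 libraries lay below both KL libraries in tumor cells and above them in the other population. The differences between populations themselves were not tested. For Abca3 the log2 fold changes were -0.60 in tumor cells and 1.34 in TRMs, a difference of 1.94. Its TRM value was 0.919 to 0.996 under quantile and TMM scaling, rescaling to reads outside mitochondrial genes and limma-voom. Centred on the pan-epithelial list, both values were above 0, at 0.33 in tumor cells and 2.77 in TRMs. For Napsa they were -1.94 in tumor cells and 0.44 in TRMs, where the median of all genes was 0.38, a difference of 2.38, and 0.37 in MDMs, a difference of 2.31. The TRM value of Napsa fell to 0.017 to 0.079 under quantile and TMM scaling, rescaling to reads outside mitochondrial genes and limma-voom. Abca3 and Napsa share exon bases with D330041H03Rik and Gm15396, and how reads were divided within these pairs is uncertain.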

How the results depend on the processing

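In tumor cells the number of the 10 genes called was 10, and 5 when centred on the pan-epithelial list, where 2 passed the threshold of the study, the median was -0.55 and Sftpa1 (0.059) and Abca3 (0.33) changed sign. Leaving out a library gave 6 to 10 called. In TRMs, 2 were called, both lower, where 48 of 10990 genes were called lower. With a filter at a mean of 5 RPKM, 4 of 4 tested were called lower, where 65 of 5796 genes were. Quantile scaling, TMM scaling and rescaling to non-mitochondrial reads each left 1 called lower, where 37, 25 and 23 of all genes were. Centred on the pan-epithelial list, 4 were called (Sftpb lower, Abca3, Napsa and Lpcat1 higher), with 10006 of 10990 genes called. Without the trend 0 were called, where 12 of all genes were. By limma-voom 6 were called (Abca3 higher, the others lower), where 408 of 10660 genes were called higher and 355 lower. The replicate numbers share only a number (r between same-numbered deviations 0.019 in tumor cells, -0.060 in TRMs and 0.054 in MDMs), and a replicate block gave 4 called in TRMs, where 382 of all genes were called higher and 88 lower against 150 and 48 without the block, and changed no other count of called genes by over 1.5 times. The TRM median was -0.73 with a pseudocount of 1, -2.26 over the 4 genes left by the filter at 5 RPKM, -1.68 with quantile and -1.48 with TMM scaling, -1.51 after rescaling, 0.31 when centred, -1.77 by limma-voom and -0.71 to -1.54 without a library. Centred, Lamp3 was at 0.31 and Slc34a2 at 0.72 in TRMs. Lpcat1 in TRMs turned to -0.29 (quantile), -0.22 (TMM), -0.24 (rescaled), -0.30 (limma-voom) and -0.25 (without KL replicate 1, the range without a library being -0.25 to 0.52). In MDMs, centring left 0 genes past the threshold of the study, with a median of -0.18, Abca3 at 1.55 and Lpcat1 at 0.87. Sftpc was then at -0.0028, Sftpb at -1.24, Sftpa1 at -0.41, Sftpd at -0.40, Lamp3 at -0.36 and Napsa at 2.37. Standard errors in that setting ran from 1.20 to 1.34. Without KL replicate 1 there were 5 called and otherwise 0, and without KL replicate 2 Abca3 was at 0.016 (range without a library -0.91 to 0.016). Taken against the KLG4 tumor cell mean, the median level of the 10 genes, averaged over 2 libraries, was 16.9% in KL and 9.50% in KLG4 TRMs (5.37% and 13.6% in replicates 1 and 2), and 24.7% in KL (14.3% and 34.96%) and 8.25% in KLG4 MDMs. The causes were not tested. Etv5 in TRMs and Etv5 and Slc34a2 in MDMs were below the filter.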
